A study of Mus musculus with 8 samples.

Results

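The genes described here are 35 mouse genes of the DNA damage response and of DNA repair, measured in tumors of a mouse model of neuroblastoma. They were chosen by name and by pathway, not by their values: 10 genes of the damage checkpoint, 16 of homologous recombination, 6 of the Fanconi anemia pathway, 1 of mismatch repair and 2 of single-strand break repair. All probe sets that the platform annotation ties to 1 such gene alone were used, which gave 80 probe sets for 34 of the 35 genes, out of 34958 single-gene probe sets for 18194 genes. No single-gene probe set was named for Xrcc2, and it is only named here. All 34 genes passed the filter of the study's methods (above log2 5, here in at least 2 tumors), as did 16254 genes in all.

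RNA came from 8 untreated tumors, each hybridized to 1 Affymetrix oligonucleotide array of the whole mouse genome. Tumors 7 and 8 came from the superior cervical ganglion, the uppermost ganglion of the sympathetic chain, and tumors 1 to 6 from the adrenal. All 8 are from LSL-MYCN;Dbh-iCre mice, in which human MYCN lies behind a CAG promoter and a floxed stop cassette at the ROSA26 locus, and Cre is driven by the promoter of Dbh, the dopamine beta-hydroxylase gene of noradrenergic cells. The transgene is thus shared by both groups, and no tumor without it is part of the comparison. Ages are not given with the samples, nor whether each tumor came from its own mouse. The p-values take the 8 tumors as independent and set each effect against the spread between these tumors. Arrays of normal adrenals were not analysed here. Levels are log2 values, on which a difference of 1 is a factor of 2, and the brightest probe set on average stands for each gene.

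Cells answer DNA damage and stalled replication forks with a signaling cascade, the checkpoint, in which the sensor kinases ATM and ATR act through the effector kinases CHK1 and CHK2 and delay entry into mitosis. Double-strand breaks in replicated DNA are repaired by homologous recombination, in which the ends are trimmed and, with the help of BRCA1 and BRCA2, the sister chromatid is copied. The Fanconi anemia pathway unhooks crosslinks between the strands, and mismatch repair removes copying errors. Many of these genes are transcribed mainly in cells that replicate their DNA, through E2F transcription factors. In MYCN-driven neuroblastoma, CHK1, WEE1 and PARP1 have been studied as drug targets.

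Before the levels, the arrays and tumors were checked. A probe set was called detected above the 95th percentile of 84 probe sets for odor, pheromone and taste receptors on the same array, a limit of 6.71 to 7.21. The gap between the probe sets for the 3′ and 5′ ends of Gapdh, which widens as RNA is degraded, was 5.51 in tumor 1 and ranged over 0.47 to 1.57 elsewhere. Of 11 sympathetic neuroblast markers 9 were measured, and they averaged 9.71 in tumor 7, against 12.88 to 13.29 elsewhere, so tumor 7 goes against its label in part. The 11 measured hepatocyte markers averaged 11.67 in tumor 6 and 5.76 to 6.17 elsewhere, and all 11 were detected in tumor 6. The 12 skeletal muscle markers averaged 7.31 and 6.80 in ganglion tumors 7 and 8, against 5.69 to 6.07 in the adrenal tumors, and the 10 endothelial markers 7.29 and 7.74, against 6.50 to 7.26. In bulk tissue, fewer cells of a type and less RNA per cell cannot be told apart.

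Sequences are shown for the promoters that hold a match to the E2F motif, since many repair genes are known as E2F targets. RefSeq promoter sequences (build GRCm38.p6, 250 bases before to 50 after the start of the gene) were matched for 27 of the 35 genes. The motif, TTTCCCGC or TTTGGCGC on either strand, was found in 6 of the 27 (22.2%), against 486 of 27025 genes of the table (1.8%). The 6 windows below are printed in the direction of the gene, with the match in capitals. They lie at chr1:71103114-71103222 on the minus strand (Bard1), chr5:150522393-150522520 on the plus strand (Brca2), chr5:110839771-110839898 on the plus strand (Chek2), chr4:43010286-43010413 on the minus strand (Fancg), chr17:87975005-87975079 on the plus strand (Msh6) and chr11:87404925-87405019 on the minus strand (Rad51c).
Bard1: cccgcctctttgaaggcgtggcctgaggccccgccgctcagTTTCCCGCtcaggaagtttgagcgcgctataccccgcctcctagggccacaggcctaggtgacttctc
Brca2: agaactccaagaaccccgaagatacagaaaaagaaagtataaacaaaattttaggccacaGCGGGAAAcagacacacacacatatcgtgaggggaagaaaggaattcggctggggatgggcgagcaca
Chek2: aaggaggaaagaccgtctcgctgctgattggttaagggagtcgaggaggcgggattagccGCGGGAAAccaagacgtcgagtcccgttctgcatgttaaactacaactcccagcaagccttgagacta
Fancg: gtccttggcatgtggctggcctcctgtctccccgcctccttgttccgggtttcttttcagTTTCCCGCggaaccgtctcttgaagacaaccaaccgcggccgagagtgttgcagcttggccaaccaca
Msh6: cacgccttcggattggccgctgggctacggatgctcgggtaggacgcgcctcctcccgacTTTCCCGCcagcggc
Rad51c: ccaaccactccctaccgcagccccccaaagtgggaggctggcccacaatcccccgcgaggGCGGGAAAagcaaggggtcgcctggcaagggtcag
Counted from the start of the gene, the match begins at position -209 in Bard1, -168 in Brca2, -152 in Chek2, -52 in Fancg, 15 in Msh6 and -5 in Rad51c. All 6 hold the TTTCCCGC form or its reverse complement. Other motifs were less frequent: TTTGAA, the cell cycle homology region, was in 1 of the 27 promoters, that of Bard1 (3.7%, against 20.2% of all genes), and the E-box CACGTG, which MYC proteins bind, was in that of Parp1 alone (3.7%, against 8.09%). Such a match is a description of the letters in this window.

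Most repair and checkpoint genes were expressed in every tumor. Of the 34 measured genes, 30 were detected in all 8 tumors, against 61.2% of all genes tested. These were all 10 checkpoint genes, 12 of 15 of homologous recombination, 5 of 6 of the Fanconi pathway, Msh6 and both genes of single-strand break repair. Bard1, whose product is the partner of BRCA1 in a ubiquitin ligase, was detected in no tumor. It was 5.80 and 5.53 in ganglion tumors 7 and 8, against 5.21, 5.59 and 5.97 (lowest, median and highest) in the adrenal tumors, which is below the detection limit of every array. Fancg, a scaffold of the Fanconi core complex, was detected in 3 tumors, and the recombination genes Xrcc3 and Rad51d in 6 and 7. With the mean of all probe sets of a gene in place of the highest one, 20 genes were detected in all tumors.

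The genes differed in how much they varied from tumor to tumor. The SD over the 8 tumors ran from 0.15 for Rad50 to 1.09 for Nbn, with a median of 0.32, against a median of 0.26 over all genes tested. It was under 0.25 for 12 of the 34 genes and over 0.4 for 11. In 16 genes the highest and lowest tumor were more than 1 apart on the log2 scale.

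**Figure D1:**
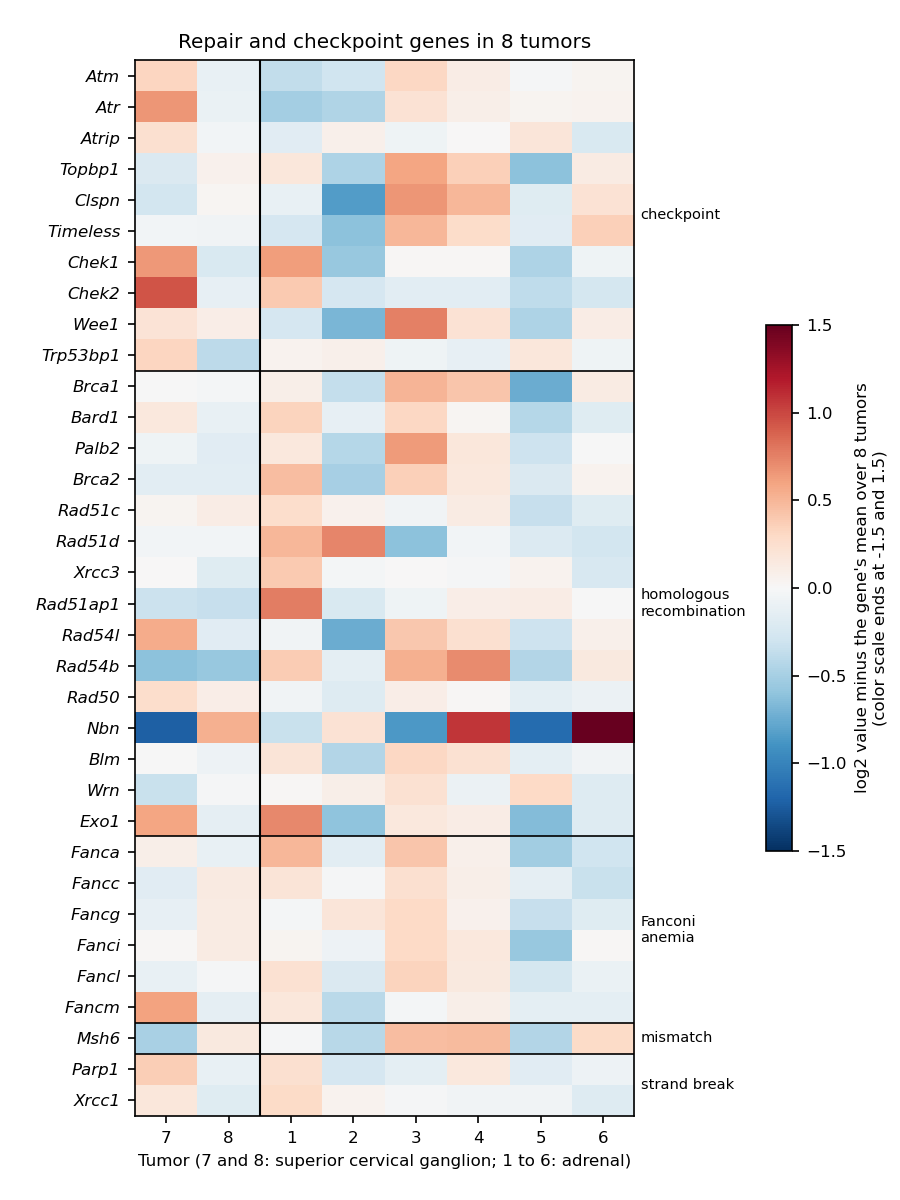
Level of each of the 34 measured genes (rows, grouped by pathway) in each tumor (columns; ganglion tumors 7 and 8 left of the line, adrenal tumors 1 to 6 right of it), as log2 value minus the mean of the gene over the 8 tumors; color gives the difference. Tumor 3 holds the highest level of 11 genes and tumor 7 of 10, tumors 2 and 5 the lowest of 11 and 10, and Nbn has the strongest colors of all.

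The SD over the tumors was 0.26 for Atm and 0.37 for Atr, the genes of the kinases that sense damage. Atm, whose kinase responds to double-strand breaks, was 9.53 and 9.09 in ganglion tumors 7 and 8, against 8.83, 9.21 and 9.52 (lowest, median and highest) in the adrenal tumors. Atr, whose kinase responds to single-stranded DNA at stalled forks, was 9.57 and 8.80 in the ganglion tumors, against 8.39, 8.95 and 9.12 in the adrenal tumors. On the probe sets that represent them, both were highest in tumor 7 and lowest in tumor 1, the tumor with the wide Gapdh gap. On the further Atr probe sets 1438921_at and 1445091_at, tumor 7 was again highest, at 7.99 and 7.59. The lowest was tumor 8 on 1438921_at (6.02, against 7.45 in tumor 1) and tumor 2 on 1445091_at (6.00, against 6.30 in tumor 1). Atrip, the obligate partner of ATR, was nearly flat, at 7.58 and 7.30 in the ganglion tumors, against 7.12, 7.31 and 7.53 in the adrenal tumors. The genes that activate ATR or carry its signal at the fork followed another order. Topbp1, the activator of ATR, was 10.87 and 11.15 in the ganglion tumors, against 10.48 to 11.68 in the adrenal tumors. Clspn, which encodes claspin, the adaptor that hands the signal to CHK1, was 9.46 and 9.77 in the ganglion tumors, against 8.90 to 10.40. Timeless, of the fork protection complex, was 10.64 and 10.62 there, against 10.06 to 11.18 in the adrenal tumors. All 3 were highest in adrenal tumor 3, and the ganglion tumors lay inside the adrenal range.

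Both effector kinase genes had their highest level in ganglion tumor 7, while the other ganglion tumor lay among the adrenal ones. Chek2 was 9.26 in tumor 7 and 8.19 in tumor 8, against 7.93, 8.10 and 8.70 in the adrenal tumors. Chek1 was 10.38 in tumor 7 and 9.50 in tumor 8, against 9.16, 9.71 and 10.36, and adrenal tumor 1 was level with tumor 7. The further Chek1 probe set 1450677_at was also highest in tumor 7 (9.03), but 1439208_at was 8.57 in tumor 7 and 8.95 in tumor 8, against 8.26 to 9.95 in the adrenal tumors, so the order of tumors depended on the probe set. Wee1, the kinase that holds CDK1 inactive, was 10.08 and 9.98 in the ganglion tumors, against 9.19, 9.81 and 10.64 in the adrenal tumors, with tumor 3 highest. Trp53bp1, which encodes 53BP1, the factor that restrains the trimming of broken ends, was 12.81 and 12.10 in ganglion tumors 7 and 8, against 12.37 to 12.66 in the adrenal tumors. On this probe set, tumors 7 and 8 were thus its highest and its lowest. On further probe sets detected in all 8 tumors, the highest was tumor 6 (10.93, 1426957_at) or tumor 5 (10.15, 1435609_at). Tumor 1 was lowest on both, at 10.53 and 9.28.

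In homologous recombination, the genes of the BRCA axis were highest in adrenal tumors 1 and 3. Brca1 was 9.73 and 9.71 in the ganglion tumors, against 9.00, 9.85 and 10.25 in the adrenal tumors. Palb2, the bridge between BRCA1 and BRCA2, was 8.37 and 8.27, against 8.01, 8.52 and 9.07. Brca2, a central mediator of recombination, was 9.30 and 9.31 in the ganglion tumors, against 8.97, 9.57 and 9.92. Brca1 and Palb2 were highest in tumor 3 and Brca2 in tumor 1, while the lowest tumors were 5 for Brca1 and 2 for Palb2 and Brca2.

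The genes that act in strand exchange had their highest levels in different tumors. Rad51ap1, which promotes strand pairing, was 9.65 and 9.63 in the ganglion tumors, against 9.74, 10.02 and 10.74 in the adrenal tumors, without overlap. Its 3 further detected probe sets did overlap between the sites, with 9.58 and 9.73 in the ganglion tumors, against 9.62 to 10.35, on the brightest of them, 1448899_s_at. Rad54b, a DNA translocase, was 7.49 and 7.54 in the ganglion tumors, against 7.67, 8.37 and 8.82, again without overlap. Its relative Rad54l was instead highest in ganglion tumor 7 (10.01), with 9.29 in tumor 8, against 8.71, 9.46 and 9.86 in the adrenal tumors. Of the remaining genes of strand exchange, Rad51c was 8.25 and 8.32 in the ganglion tumors, against 7.86 to 8.47, and Xrcc3 was 7.02 and 6.84, against 6.78 to 7.41. Rad51d was 7.30 and 7.31 in the ganglion tumors and 6.73 to 8.08 in the adrenal tumors. It had its lowest level in tumor 3 and its highest in tumor 2, whereas tumor 3 was the highest for 11 genes and tumor 2 the lowest for 11.

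Both listed genes of the MRN complex, which holds and trims broken ends, were the least and the most variable of the 34. Rad50 was 9.18 and 9.02 in the ganglion tumors, against 8.72, 8.85 and 9.02 in the adrenal tumors. Nbn, whose product nibrin recruits ATM to the break, was 8.63 in ganglion tumor 7 and 10.39 in tumor 8. In adrenal tumors 1 to 6, Nbn was 9.52, 10.07, 9.00, 10.93, 8.70 and 11.62. The difference of 2.99 between tumor 6 and tumor 7 is a factor of 7.94. These are the tumors that the hepatocyte and neuroblast markers set apart, and without them Nbn ranged from 8.70 to 10.93, a factor of 4.68. Over all 8 tumors, the SD of Nbn was above that of 97.7% of all genes tested. Nbn has 1 single-gene probe set, so no further probe set could be set beside it. Of its neighbors on chromosome 4, chosen after their values were seen, Decr1 ranged from 8.21 to 9.76 and Osgin2 from 8.93 to 10.78, and both were lowest in tumor 7. Calb1, Tmem64 and Mmp16, also detected in all tumors, were not: they were 9.21, 9.78 and 9.18 in tumor 7, against 8.20 to 9.91, 9.19 to 9.78 and 8.58 to 9.24 elsewhere. The third gene of the complex, listed in the files as Mre11a, was 8.15 and 7.59 in the ganglion tumors and 7.29 to 7.62 in the adrenal tumors.

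Of the helicases and nucleases, Blm, the Bloom syndrome helicase gene, was 8.91 and 8.85 in the ganglion tumors, against 8.48 to 9.23 in the adrenal tumors. Wrn, the Werner syndrome helicase gene, was 7.39 and 7.71, against 7.53 to 8.03. Exo1, the exonuclease of end trimming and mismatch repair, was 9.75 in tumor 7 and 9.02 in tumor 8, against 8.51, 9.12 and 9.88 in the adrenal tumors. On the probe sets that represent them, Exo1 was highest in tumor 1 and in tumor 7, as Chek1 was. On the further Exo1 probe set 1418027_at, tumor 7 was highest (7.65), but tumor 1 was 7.35, below tumor 3 (7.62) and tumor 4 (7.59).

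The SD of the 6 Fanconi genes was 0.20 to 0.34. Fanca, of the core complex, was 8.31 and 8.11 in the ganglion tumors, against 7.70 to 8.72 in the adrenal tumors. Fancc and Fancg, of the same complex, were 8.00 and 8.31 (Fancc) and 6.73 and 6.97 (Fancg) in the ganglion tumors, against 7.84 to 8.41 and 6.50 to 7.15 in the adrenal tumors. Fancl, its ubiquitin ligase, was 8.83 and 8.93, against 8.68 to 9.28. Fanci, one of the pair of proteins this ligase marks, was 8.24 and 8.35, against 7.66 to 8.53. Fancm, the translocase that anchors the complex to DNA, was 9.49 in tumor 7 and 8.75 in tumor 8, against 8.49 to 9.06. Of the 6 genes, Fancc, Fancg, Fanci and Fancl were highest in tumor 3, and Fanca, Fancg, Fanci and Fancl were lowest in tumor 5.

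Msh6, whose product recognizes base mismatches, was 9.81 and 10.45 in ganglion tumors 7 and 8, against 9.86, 10.43 and 10.78 in the adrenal tumors. Tumor 7 thus lay just below the adrenal range and tumor 8 in its middle. Parp1, the enzyme that marks strand breaks with poly(ADP-ribose), was 11.81 and 11.33 in the ganglion tumors, against 11.19 to 11.69. Xrcc1, the scaffold of single-strand break repair that PARP1 recruits, was 9.82 and 9.47, against 9.46 to 9.94.

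The comparison of the ganglion with the adrenal tumors asks whether the repair program differs between the sites of origin. None of the 34 genes passed it in limma (Benjamini-Hochberg adjusted over 16254 genes, threshold 0.05), where 3 genes passed in all (0.0185%). These 3, Acta1, Clvs2 and Tnnt3, were higher in the ganglion tumors, and Acta1 and Tnnt3 belong to the muscle markers. At an unadjusted p under 0.05, 1 of the 34 genes stood out, against 4.68% of all genes tested. This was Rad54b, at -0.79 ± 0.29 (SE, limma, ganglion minus adrenal; adjusted p = 0.903, range over the alternatives 0.332 to 1.0). The levels of 3 genes did not overlap between the sites (Rad54b and Rad51ap1 lower and Rad50 higher in the ganglion tumors), against 4.42% of all genes. For Rad50, tumor 8 and adrenal tumor 3 are equal once rounded to 2 decimals. The differences were -0.45 ± 0.24 for Rad51ap1 and 0.24 ± 0.13 for Rad50, and Chek2 differed by 0.55 ± 0.29. Rad51ap1 differed by -0.29 with the mean of its probe sets and -0.23 on the one with the highest SD. Rad50 differed by 0.16 without tumor 7. With the mean of its probe sets it was 0.08, but the further Rad50 probe set, 1425939_at, was detected in no tumor. Of the 34 differences, 32 were under 0.5 in size, 15 were above 0 and 19 below, with a median of -0.02 (-0.03 over all genes). The SEs of the differences were 0.13 to 0.79.

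**Figure D2:**
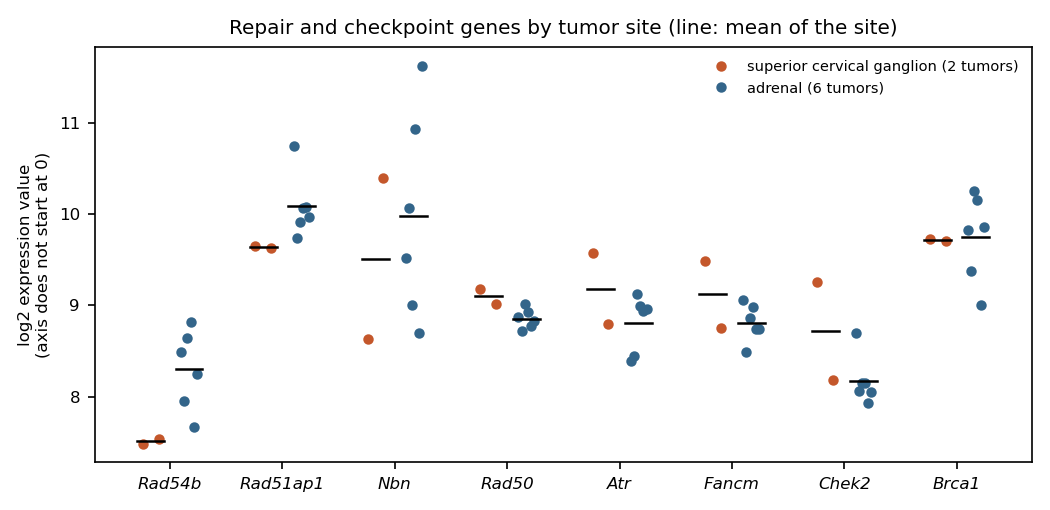
Log2 level (vertical axis, not starting at 0) of 8 genes in the 2 ganglion tumors (left of each pair, orange) and the 6 adrenal tumors (right, blue); points are tumors and lines are the means. On the probe sets that represent the genes, Rad54b and Rad51ap1 lie lower and Rad50 higher in both ganglion tumors, whereas for Chek2, Atr and Fancm 1 of the 2 ganglion tumors lies above all adrenal tumors.

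The difference of Chek2 rested on tumor 7. It was 1.09 without tumor 8 (adjusted p = 0.0619, with the lone ganglion tumor assumed to vary like the adrenal ones), 0.02 without tumor 7 and -0.01 without tumors 6 and 7. On the representing probe sets, tumor 7 held the highest level of 10 of the 34 genes (29.4%), among them Atm, Atr, Atrip, Chek1, Chek2 and Trp53bp1, against 17.3% of all genes highest in it. Tumor 7 was not highest on Atm 1421205_at (7.61, against 9.73 in tumor 4), Chek1 1439208_at, or Trp53bp1 1426957_at and 1435609_at. It was highest on Chek1 1450677_at and on Atr 1438921_at and 1445091_at. Without 1 tumor in turn, Rad54b differed by -0.91 to -0.68. As given above, the muscle markers were higher in both ganglion tumors and the neuroblast markers lower in tumor 7. The endothelial markers were higher mainly in tumor 8 (7.74), since tumor 7 (7.29) was close to the highest adrenal tumor (7.26). The part of these cell types in the differences was not tested.

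Across the tumors, most of the 34 genes had higher levels where genes of mitosis did. A mitosis index was taken for each tumor as the mean of 42 measured genes of cell division, none of them among the 34, each centred over the tumors. It was -0.16 and -0.05 in ganglion tumors 7 and 8, and 0.14, -0.51, 0.56, 0.28, -0.34 and 0.08 in adrenal tumors 1 to 6. Of the 34 genes, 30 had a positive slope on this index (88.2%), against 47.3% of all genes tested. The median slope was 0.47 per unit of the index, against -0.02 over all genes. At an unadjusted p under 0.05, 14 of the 34 had a positive slope (41.2%, against 3.73% of all genes) and 0 a negative one (against 3.7%). No gene passed the adjustment over all genes in limma (0.0%), and the lowest adjusted p among the 34 was 0.160, of Topbp1.

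The 14 genes came from 4 of the pathways, all but single-strand break repair. In the checkpoint, the slope was 1.27 ± 0.23 for Clspn (SE, limma, n = 8 tumors; adjusted p = 0.180), 1.14 ± 0.18 for Topbp1, 1.13 ± 0.27 for Wee1 and 0.88 ± 0.25 for Timeless. In homologous recombination, the slope was 1.11 ± 0.37 for Rad54b, 1.05 ± 0.23 for Brca1, 0.93 ± 0.16 for Palb2, 0.84 ± 0.33 for Rad54l, 0.82 ± 0.20 for Brca2 and 0.66 ± 0.16 for Blm. In the Fanconi pathway, it was 0.67 ± 0.29 for Fanca, 0.57 ± 0.17 for Fancl and 0.54 ± 0.23 for Fanci. Msh6 had 1.03 ± 0.25. On the probe sets that represent them, the adjusted p of these 14 lay between 0.160 and 0.667. Smaller slopes came from further probe sets detected in 2 to 5 tumors. These slopes were 0.30 ± 0.31 for Topbp1 (1458480_at) and 0.48 ± 0.28 for Clspn (1441984_at). Wee1 had 0.76 ± 0.38 (1416774_at) and Rad54l 0.28 ± 0.45 (1453926_at). Larger slopes came from probe sets detected in all 8 tumors for Timeless (1.28 ± 0.28) and Rad54l (1.03 ± 0.30 and 1.05 ± 0.24). Brca1 had 1.16 ± 0.60 on 1451417_at, detected in 5.

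On the probe sets that represent them, the other 20 genes had slopes whose unadjusted p was over 0.05. Those of the kinases that start and end the cascade were 0.32 ± 0.27 for Atm, 0.23 ± 0.39 for Atr, 0.55 ± 0.43 for Chek1 and 0.01 ± 0.47 for Chek2. For Chek1 the slope depended on the probe set: the further probe sets detected in all 8 tumors had 1.75 ± 0.30 (1439208_at, adjusted p = 0.228 in the limma fit of every probe set) and 0.93 ± 0.37 (1450677_at). Rad51ap1 had 0.31 ± 0.37, but 0.66 ± 0.22 on 1448899_s_at, 0.75 ± 0.34 on 1417940_s_at and 0.55 ± 0.58 on 1417939_at. Exo1 had 0.78 ± 0.44, but 0.90 ± 0.31 on 1418027_at, detected in 6 tumors. Of these further probe sets, 1439208_at, 1450677_at, 1448899_s_at and 1418027_at had an unadjusted p under 0.05 in limma. Both strand break repair genes were near 0, with 0.15 ± 0.26 for Parp1 and -0.04 ± 0.22 for Xrcc1. The slopes below 0 were those of Rad51d (-0.73 ± 0.37), Atrip (-0.26 ± 0.19), Trp53bp1 (-0.23 ± 0.24) and Xrcc1. On the further detected probe sets of Rad51d, the slope was smaller, at -0.31 ± 0.33 (1425944_a_at) and -0.07 ± 0.20 (1443891_at). Nbn had 0.45 ± 1.08, an SE too large to tell whether its wide range followed the index. A difference between the slopes of 2 genes was not tested.

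**Figure D3:**
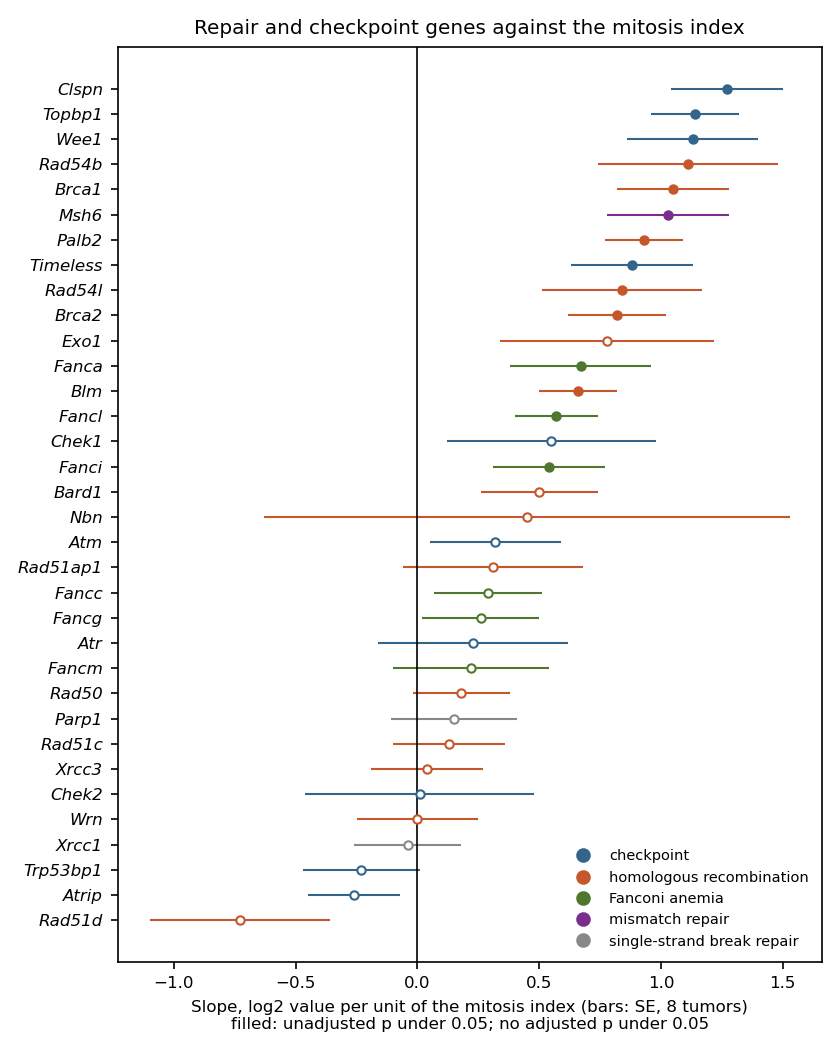
Slope of each of the 34 genes on the mitosis index (horizontal axis, log2 value per unit of the index), with bars for the SE from the limma fit over 8 tumors; color gives the pathway, and filled points have an unadjusted p under 0.05. The slopes run from -0.73 for Rad51d to 1.27 for Clspn, and 14 points are filled, all at positive slopes.

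The highest and lowest levels often fell in the tumors at the ends of the index. Tumor 3, with the highest index, held the highest level of 11 of the 34 genes (32.4%), against 11.0% of all genes. Tumor 2, with the lowest index, held the lowest level of 11 (32.4%), against 8.04%, and tumor 5, with the next lowest index, that of 10 (29.4%), against 14.4%. Without tumors 2 and 3, 5 of the 34 genes had a positive slope at an unadjusted p under 0.05 in place of 14, over the 6 tumors left. The slopes of the 14 genes were then 0.35 to 2.15, of which 8 were larger and 6 smaller than over all 8 tumors. Those that moved by more than 1.5 times were Rad54b (2.15), Fanci (0.94), Wee1 (0.60), Timeless (0.53) and Rad54l (0.35). With 1 tumor left out in turn, the slopes of the 14 genes were 0.32 to 1.57, and Rad54l fell to 0.49 without tumor 2 and Fanci to 0.32 without tumor 5. The slope of Fanci was 0.19 with the mean of its probe sets, of which 1425941_a_at was detected in no tumor. With an index of DNA replication genes in place of mitosis genes, 16 genes had a positive slope at that level, and without tumors 6 and 7 it was 15. The share of all genes at that level was not taken for these settings, nor without tumors 2 and 3. Tumor 5 also had the lowest mean of 10 fibroblast markers (8.21, against 9.52 to 10.55 in the other tumors), and the part of other cells in the slopes was not tested.

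**Figure D4:**
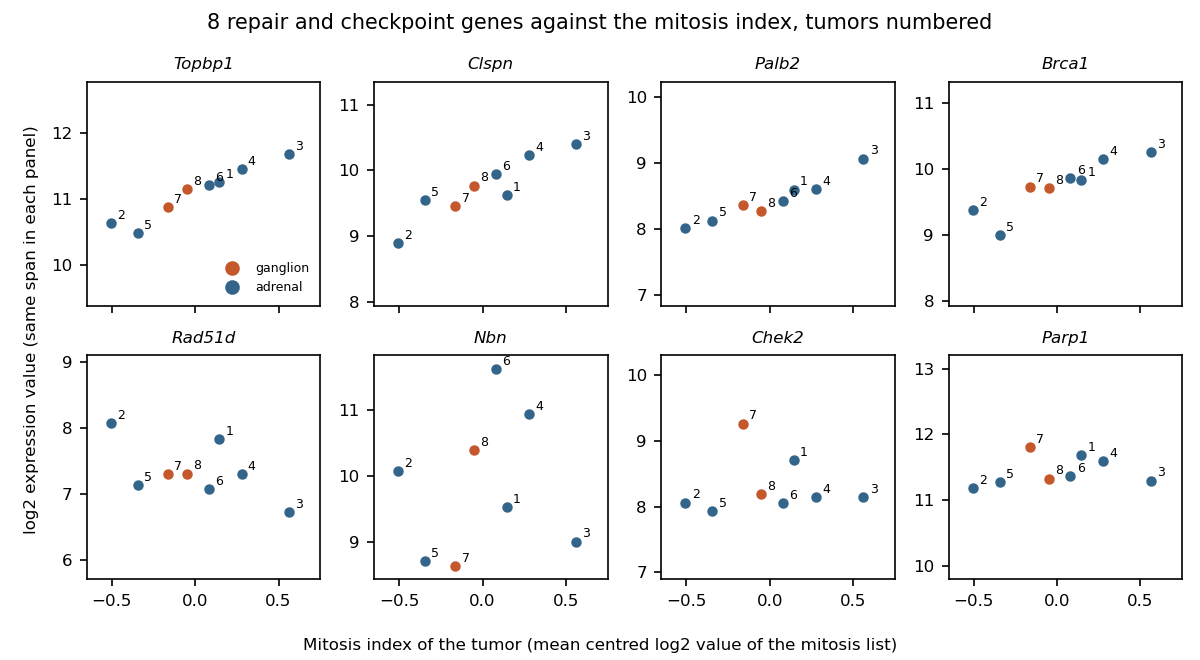
Log2 level of 8 genes (vertical axes, the same span in each panel) against the mitosis index of the tumor (horizontal axis); each point is 1 tumor with its number, orange for ganglion and blue for adrenal. Topbp1, Palb2 and Brca1 have their lowest levels in tumors 2 and 5 and Clspn in tumors 2 and 7, and each is highest in tumor 3. Rad51d is highest in tumor 2 and lowest in tumor 3, and Chek2 is highest in tumor 7.

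The E2F match occurred in promoters of genes with and without such a slope. Of the 27 genes with a promoter sequence, 12 had a positive slope at an unadjusted p under 0.05, and 2 of these held the motif (16.7%), Brca2 and Msh6. Of the other 15, 4 held it (26.7%). These 4 were Bard1, Chek2, Fancg and Rad51c, with slopes of 0.50 ± 0.24, 0.01 ± 0.47, 0.26 ± 0.24 and 0.13 ± 0.23 (SE). Topbp1, Clspn, Brca1 and Fancl were among the genes with a slope at that level and no match in the promoter window.

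Tumor 1 held the highest level of 8 genes (23.5%), against 26.3% of all genes: Bard1, Brca2, Rad51c, Xrcc3, Rad51ap1, Exo1, Fanca and Xrcc1. In that tumor, probe sets of 1 gene disagreed. For 17 genes with at least 2 detected probe sets, the deviations of these probe sets from the mean of the other tumors spread by a median of 0.65 in tumor 1 and by 0.235 to 0.466 in each other tumor. For Parp1, probe set 1422502_at was 9.06 in tumor 1, against 10.32 to 11.47 in the others, while 1435368_a_at, which represents the gene, was 11.69. For Rad51ap1, 1417939_at was 6.19 in tumor 1, against 6.72 to 7.96, while the representing 1417938_at was 10.74 and its highest. For Brca1, 1451417_at was 5.72 in tumor 1, against 6.35 to 7.87, while 1424629_at was 9.83. The Gapdh gap was 5.51 in this tumor, and its part in the disagreement was not tested. With the gap as a covariate, 13 genes had a positive slope on the mitosis index at an unadjusted p under 0.05, and 3 had a difference between the sites.

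**Figure D5:**
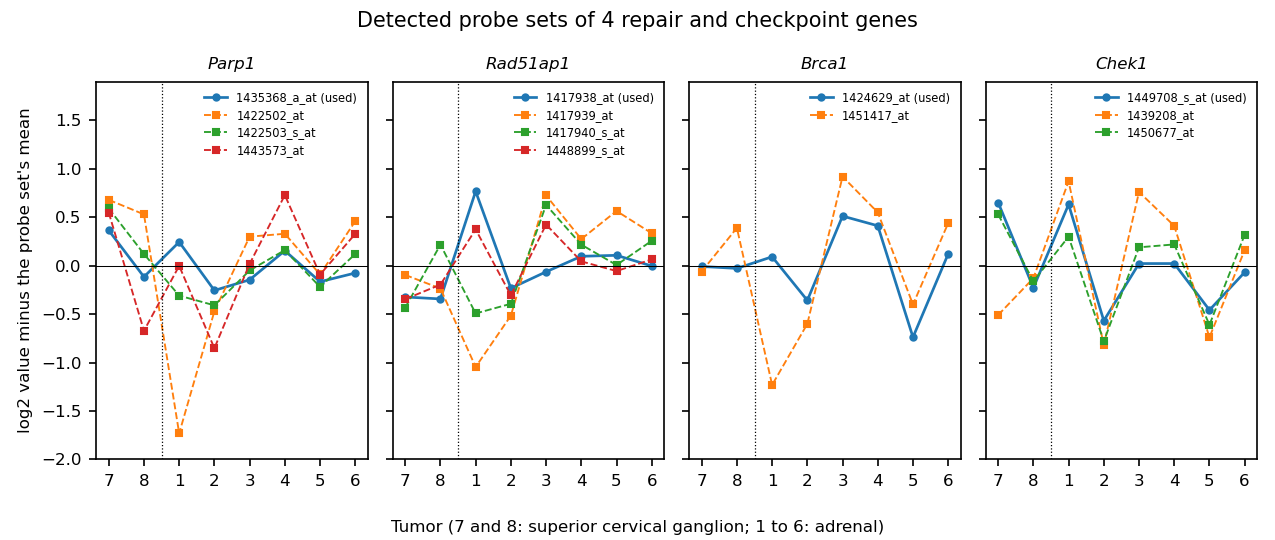
Level of each probe set detected in at least 1 tumor for Parp1, Rad51ap1, Brca1 and Chek1, as log2 value minus the mean of the probe set over the 8 tumors (vertical axis), by tumor (horizontal axis; ganglion tumors 7 and 8 left of the dotted line, adrenal tumors 1 to 6 right). The blue line is the probe set that represents the gene. In tumor 1, 1 probe set each of Parp1, Rad51ap1 and Brca1 falls more than 1 below its mean while the blue line lies above 0.

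Over all 34 genes, 24 had several probe sets, up to 6 for Trp53bp1, and 46 further probe sets were thus set beside the representing ones. Of these, 31 were detected in at least 1 tumor. Some had a pattern of their own. The further Atm probe set 1421205_at was 7.61 and 7.53 in the ganglion tumors, and 7.00, 8.96, 7.79, 9.73, 7.07 and 7.63 in adrenal tumors 1 to 6, with tumors 2 and 4 high, while 1428830_at, which represents Atm, spanned 8.83 to 9.53 and had neither of them highest. The Trp53bp1 probe set 1457812_at was highest in ganglion tumor 7 (7.94) and lowest in adrenal tumor 2 (4.00), and was detected in 2 tumors. The pattern over the tumors thus depended on the probe set for Atm and Trp53bp1, as it did for Atr and Chek1. Values given above without a probe set are those of the brightest.

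Of a wider list of 113 other repair genes, 101 were measured, and 69 of them had a positive slope on the mitosis index (68.3%), with a median of 0.21. Of the 101, 87 were detected in all tumors, 0 passed either fit in limma, and 12 had a positive slope at an unadjusted p under 0.05 (11.9%), against 3 with a negative one. The 4 with the lowest p were Tipin (0.99 ± 0.17), the partner of Timeless, Usp1 (1.06 ± 0.23), which removes ubiquitin from the FANCD2 and FANCI pair, Hus1 (0.93 ± 0.23), of the clamp that brings TOPBP1 to ATR, and Mdc1 (0.74 ± 0.21), the scaffold at marked chromatin around breaks. Between the sites, the 4 with the lowest p were Ddb2 (-0.67 ± 0.26), of nucleotide excision repair, Mre11a (0.42 ± 0.17), the DNA glycosylase gene Neil3 (-1.08 ± 0.47) and the nuclease gene Mus81 (-0.40 ± 0.20), each with an adjusted p of 0.903 in limma. Ddb2, Mre11a and Neil3, 3 genes, had an unadjusted p under 0.05, which is 2.97% of the list, against 4.68% of all genes. They stood apart in tumor 7 only: Ddb2 was 6.90 in tumor 7 and 7.83 in tumor 8, against 7.69 to 8.38 in the adrenal tumors, and Neil3 was 6.38 and 8.25, against 7.94 to 9.07, while Mre11a, given above, was within the adrenal range in tumor 8.

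The gene with the largest SD of that list, Fancd2, was high in 1 tumor. It encodes the partner of FANCI, and was 11.62 in ganglion tumor 7 and 7.83 in tumor 8, against 7.65 to 8.62 in the adrenal tumors. On 2 further Fancd2 probe sets tumor 7 was also highest, at 11.09 on 1438339_at, against 7.35 to 8.10 in the others, and at 8.15 on 1442092_at, against 5.03 to 5.34, while on 1430916_at it was 5.31, against 5.05 to 5.59. Fanci, measured in the same arrays, was 8.24 in tumor 7 and 7.66 to 8.53 elsewhere. Fancd2 lies on chromosome 6, 19 places along the gene order from ROSA26, the site of the MYCN transgene. Other repair genes near that site, chosen after their values were seen, were Ogg1, 6 places to the same side, at 8.27 in tumor 7 and 7.15 to 7.99 elsewhere, and Rad18, 3 places to the other side, at 8.60 in tumor 7 and 8.63 to 9.84 elsewhere. Copy number in these tumors was not analysed here. Next in SD were Slx1b (5.36 in tumor 4 to 7.87 in tumor 1), Neil3 (6.38 in tumor 7, against 7.94 to 9.07) and the uracil glycosylase gene Ung (11.00 in tumor 7, against 8.91 to 10.34).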

How the data were processed

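Tumor RNA was hybridized to Affymetrix arrays, and the authors deposited log2 expression values of 45101 probe sets for 8 tumors. RMA and Partek 6.6 are named in the processing notes of the submitters and gcRMA in the study's methods, and which of them gave these values is unsettled. Background correction and normalization are included in either, and no further normalization was applied. Platform annotation gave 34958 probe sets 1 gene, 932 several and 9211 none, and symbols were updated through 34754 Entrez identifiers found in the GRCm38.p6 gene table. As in the methods, the probe set with the highest mean represented each gene. Values above log2 5 in at least 2 tumors were required.

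Genes were fitted in limma 3.58.1 (R 4.3.3; lmFit and eBayes, Benjamini-Hochberg threshold 0.05), on site and on the mitosis index. No depth exists for arrays, and their number limits the precision. On simulated data with 200 of 16254 genes changed, the site fit recovered 80 genes changed by 1 (2 false calls) and 177 changed by 2 (17 false). The index fit recovered 0 genes with a slope of 1 (0 false) and 141 with a slope of 2 (9 false). The simulated noise was independent between genes and the largest SDs were capped. Variation that genes share across tumors was thus not modelled, and the counts hold for that noise only. Python 3.11.15, numpy 2.4.6, pandas 2.3.3, scipy 1.17.1 and matplotlib 3.10.9 served for the rest.

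All listed genes are named. Of the other repair genes, those with the 4 lowest p in a fit and the 4 largest SDs are named, and further names are marked. The genes, lists and tests were chosen with earlier results of these data known. Alternatives covered normalization, filter, probe set, test, covariates, index, detection limit and tumors left out.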

Additional observations from a re-analysis of the deposited data

Results flagged for a closer look

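In 3 of 36 measures, the highest or lowest of the 8 tumors was separated from its neighbor by more than 0.526 of the range, Dixon's critical share for 8 samples, where chance gives about 1 in 20. Tumor 1 had 10.74 for Rad51ap1, against 9.63 to 10.08 elsewhere (share 0.591). Tumor 1 had 7.41 for Xrcc3, against 6.78 to 7.07 elsewhere (share 0.530). Tumor 5 had 7.66 for Fanci, against 8.15 to 8.53 elsewhere (share 0.570). Tumor 1 is the tumor with the wide Gapdh gap, and a further Rad51ap1 probe set was lowest in it, at 6.19.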

How the results depend on the processing

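No listed gene passed either fit in limma under any alternative run. No paired analysis was possible because the labels do not say which mouse each tumor came from. The count of genes passing the site fit (3) was 1 with the receptor-based filter, 6 with the mean of probe sets, 5 with every probe set fitted on its own and 10 without tumors 6 and 7. Leaving out 1 tumor in turn gave 2 to 954, with 11 without tumor 7 and 954 without tumor 8, where tumor 7 alone stands for the ganglion. Listed genes at an unadjusted p under 0.05 between the sites (1) were 2 with every probe set, 3 with the Gapdh gap as a covariate, 0 without tumors 6 and 7, and 0 to 3 with 1 tumor left out (3 without tumor 1 or 8, 0 without tumor 7). The count of genes passing the index fit (0) was 0 to 13 with 1 tumor left out (13 without tumor 7). Listed genes with a positive slope at an unadjusted p under 0.05 (14) were 23 probe sets when each was fitted on its own, 5 without tumors 2 and 3, and 11 to 16 with 1 tumor left out. Shares of all genes at an unadjusted p under 0.05 were taken in the main fits only. Chek2 turned to -0.01 between the sites without tumors 6 and 7. The cause of these shifts was not tested. In the other alternatives, single genes kept their direction in 365 values, and 127 counts stayed within 1.5 times.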
